A study of Populus tremula x Populus alba with 3 samples.

Results

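Poplar genes of jasmonate signalling and the early wound response, 5 in number, were followed through apical bud libraries. They were chosen by identifier out of the 41335 genes of the deposited count table. The authors' deposited table pairs each of the 5 with an Arabidopsis locus. Potri.003G068900 is matched to JAZ1, Potri.003G165000 to JAZ10, Potri.001G015400 to LOX2, Potri.002G001400 to CML37 and Potri.002G119300 to ZAT10. All 5 were picked with results of these libraries known, so their differences from wild type are given as a description, without a test. All 5 passed the filter on low counts, but only the LOX2 match met it in wild type. The JAZ1, JAZ10, CML37 and ZAT10 matches passed only through the RNAi libraries, where they are high.

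The plants were the hybrid poplar INRA clone 717-1B4 (Populus tremula x Populus alba). One library came from wild type and 2 from lines carrying an RNA interference construct aimed at PtaDML10. Its name refers to DEMETER-like demethylases, which take methylated cytosine out of DNA. The lines are KD2 and KD5, with 1 library each, and neither the promoter of the construct nor the handling of an empty vector is given in the labels. All plants spent 4 weeks in 16 h days at 21 °C, 12 weeks in 8 h days at 19 °C and 4 weeks at 4 °C before their return to long days, and 15 buds per genotype were taken before visible bud break. Whether these buds were pooled was not stated.

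Jasmonates are lipid-derived hormones that plants make after wounding and during development. In Arabidopsis, 13-lipoxygenases such as LOX2 start their synthesis in the plastid. JAZ proteins hold back the transcription factor MYC2 and its relatives until the active hormone, jasmonoyl-isoleucine, brings JAZ proteins to the receptor COI1 and leads to their breakdown. JAZ genes are themselves switched on by the hormone, as are CYP94 and JOX enzymes that oxidise it. Touch and wounding also raise calcium within seconds to minutes, and genes such as CML37, a calmodulin-like calcium sensor, and ZAT10, a zinc finger repressor of transcription, are among those switched on early in Arabidopsis.

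Total counts were 6829583 (wild type), 4509887 (KD2) and 4692056 (KD5). Levels are in CPM, the usual depth-scaled count unit, after TMM scaling, and a count of 3, used here as the floor, stood for 0.488, 0.63 and 0.615 CPM respectively. The locus that published poplar naming gives for PtaDML10, Potri.010G234400, had 9.59 CPM in wild type, 13.2 CPM in the library labelled KD2 and 17.0 CPM in the library labelled KD5. No lowering was seen at this locus, where both libraries lay above wild type by a difference that was not called (edgeR quasi-likelihood adjusted p = 0.15). The sources used here do not pair that identifier with the name, and whether the target was knocked down was not tested. KD2 and KD5 are therefore used below as the labels of these libraries. SHOOT MERISTEMLESS matches, which mark the shoot apex, were present in all 3 libraries, with Potri.011G011100 at 149 CPM (wild type), 67.2 (KD2) and 89.2 (KD5).

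The JAZ matches came first in size of the contrast between the RNAi libraries. The JAZ1 match, Potri.003G068900, had 11 counts in wild type (1.79 CPM, exact 95% Poisson interval 0.893 to 3.2), 18 in KD2 (3.78 CPM, 2.24 to 5.97) and 108 in KD5 (22.1 CPM, 18.2 to 26.7). KD5 lay apart from both other libraries, while the intervals of wild type and KD2 overlapped. As a CPM ratio, KD5 stood at 12.4 times wild type (exact 95% interval 6.65 to 25.5) and KD2 at 2.11 times (0.945 to 4.95). All intervals cover counting error only.

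The JAZ10 match, Potri.003G165000, had 13 counts in wild type (2.11 CPM, interval 1.13 to 3.61), 33 in KD2 (6.93 CPM, 4.77 to 9.73) and 102 in KD5 (20.9 CPM, 17.0 to 25.4). In Arabidopsis JAZ10 acts as a brake on jasmonate responses. Its 3 libraries were in the order wild type, KD2, KD5, and none of the intervals overlapped. KD2 stood at 3.28 times wild type (1.68 to 6.79) and KD5 at 9.89 times (5.53 to 19.2).

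**Figure D1:**
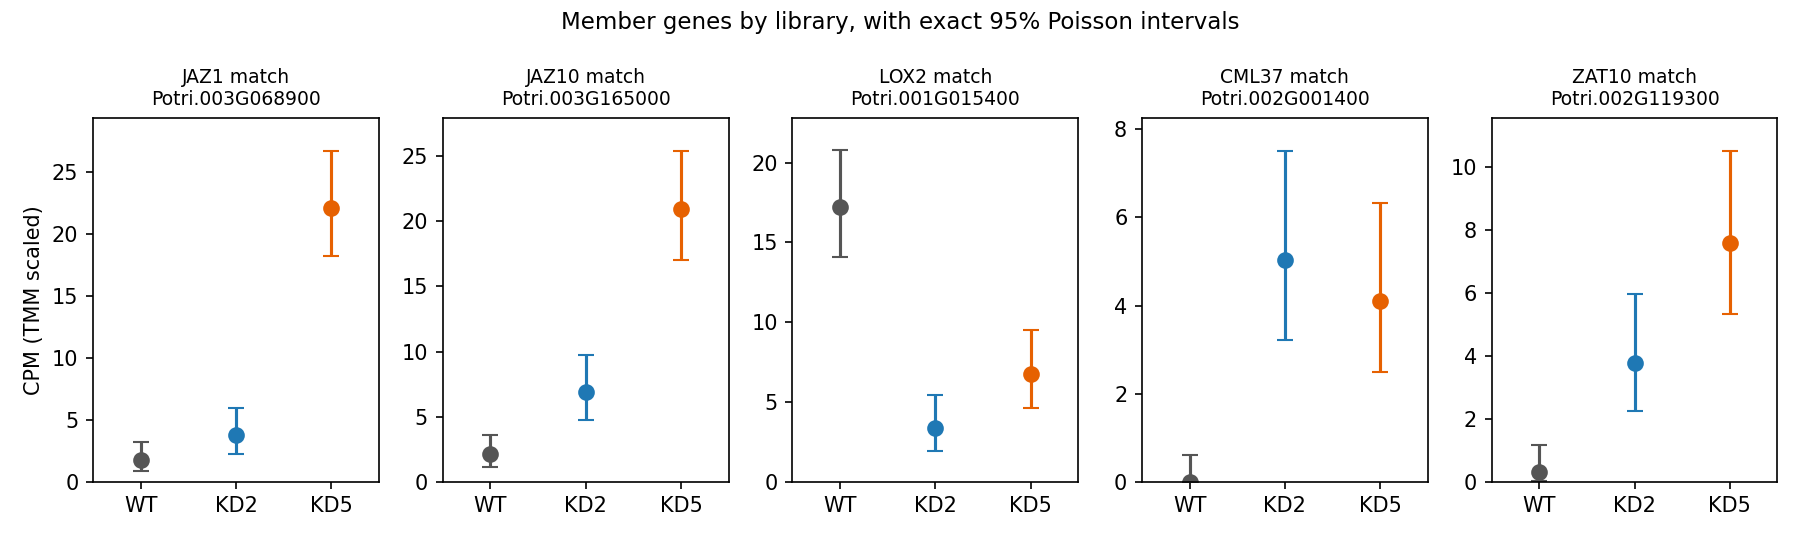
Level of each of the 5 genes in CPM (vertical axes, starting at 0 and scaled for each gene) in the wild type (WT), KD2 and KD5 libraries; points are the libraries and bars exact 95% Poisson intervals for counting error. The JAZ1 and JAZ10 matches reach 22.1 and 20.9 CPM in KD5 alone, the LOX2 match is highest in wild type at 17.2 CPM, and the CML37 and ZAT10 matches are above wild type in both RNAi libraries.

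The LOX2 match went the other way. Potri.001G015400 had 106 counts in wild type (17.2 CPM, interval 14.1 to 20.8), 16 in KD2 (3.36 CPM, 1.92 to 5.46) and 33 in KD5 (6.76 CPM, 4.66 to 9.5). Both RNAi libraries lay below wild type without overlap, and those of KD2 and KD5 overlapped. KD2 stood at 0.195 times wild type (0.108 to 0.331) and KD5 at 0.392 times (0.257 to 0.585). Since each library is whole bud tissue, fewer cells that express a gene and less RNA per cell cannot be told apart.

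The CML37 match, Potri.002G001400, had 0 counts in wild type (0 CPM, interval 0 to 0.6), 24 in KD2 (5.04 CPM, interval 3.23 to 7.5) and 20 in KD5 (4.1 CPM, 2.5 to 6.33). Both RNAi libraries were alike within counting error, with a KD5 to KD2 ratio of 0.813 (0.426 to 1.54). Set against the floor of 3 counts in the wild type library, which leaves out counting error in the RNAi library, KD2 was at least 10.3-fold higher and KD5 at least 8.4-fold higher. With counting error in both libraries, the exact 95% lower limits of these ratios were 7.77 and 6.22.

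The ZAT10 match, Potri.002G119300, had 2 counts in wild type (0.325 CPM, interval 0.0394 to 1.17), 18 in KD2 (3.78 CPM, 2.24 to 5.97) and 37 in KD5 (7.58 CPM, 5.34 to 10.5). Both RNAi libraries lay above wild type. The ratio to wild type was 11.6 in KD2 (2.78 to 103) and 23.3 in KD5 (6.02 to 200), and the width of these intervals reflects the 2 wild type counts.

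Averaged over KD2 and KD5 (n = 2), the JAZ1 match stood at 13 ± 13 CPM (SD) and the JAZ10 match at 13.9 ± 9.88 CPM, against 4.57 ± 0.665 CPM for the CML37 match, 5.68 ± 2.69 CPM for the ZAT10 match and 5.06 ± 2.41 CPM for the LOX2 match. The mean of the JAZ matches thus describes neither library. The authors' deposited table gives log2 fold changes of the RNAi lines over wild type of 2.83 for the JAZ1 match, 2.7 for JAZ10, 7.59 for CML37, 4.02 for ZAT10 and -1.77 for LOX2. The value for CML37 depends on how 0 counts were treated. The edgeR quasi-likelihood test of both RNAi libraries against wild type called 4 of the 5 higher and 1 lower, beside 13.1% of 23089 tested genes called in either direction (5% higher and 8.05% lower). Both RNAi libraries lay above wild type in CPM for 4 of the 5 and for 40.1% of tested genes, and both lay below it for 1 of the 5 and for 38.4%. The JAZ1 match was not called under loess normalization, nor the ZAT10 match with limma-voom, nor any of the 5 without a filter on low counts. Since the genes were chosen on this contrast, nothing is read from these counts.

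KD5 was at least 2-fold above KD2 (log2 ratio of at least 1, with a prior count of 2) for 2 of the 5, the JAZ1 match at a log2 ratio of 2.44 and the JAZ10 match at 1.54. Of all tested genes 2.57% met this threshold, and of the 4981 with a mean level within the range of the 5 genes (3.05 to 9.98 CPM) 4.32% did. The LOX2 match (0.93) and the ZAT10 match (0.94) lay just below it, and the CML37 match stood at -0.27. Without the prior count the CPM ratio was 2.01 for both LOX2 (1.08 to 3.92) and ZAT10 (1.11 to 3.74), so that 4 of the 5 reached 2-fold, beside 3.37% of all tested genes. With 1 library per line, no test of KD5 against KD2 is possible.

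The other genes of these pathways were taken from lists of Arabidopsis loci. Only genes in the authors' deposited table carry a locus, so the lists count genes whose selection already rested on these libraries. They are no independent evidence of direction, and the fair background is that table, of which 30.8% of the 2128 tested genes were called higher and 59.5% lower. The 6 lists hold 109 loci, of which 22 had a match. These were 4 of 20 for synthesis, 2 of 11 for turnover, 4 of 17 for JAZ repressors and partners and 12 of 39 for early wound genes. Counts per list describe the matched loci only, and most listed loci were not analysed here. Of the 6 lists, 4 had a match, with 25 genes besides the 5. Of these 25, 18 were called higher, 3 lower and 4 not called. The lists of jasmonate receptor and transcription factors, which holds COI1 and MYC2, and of jasmonate response genes such as VSP2 had no match, so the levels of those genes were not analysed here.

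Among JAZ repressors and their partners, 3 of 4 other genes were called higher and 1 lower. The median over these 4 was a log2 fold change of 1.65 (1.62 with the gene at 0 in wild type set at its bound), beside -0.76 over the tested genes of the authors' deposited table and 0.02 over all genes tested. The JAZ8 match and the second JAZ10 match passed the filter on low counts through KD5 alone, which partly fixed this median. By library, the median log2 ratio to wild type (prior count of 2) was 0.26 in KD2 and 2.08 in KD5. At least 2-fold above wild type were 1 of 4 in KD2 and 3 of 4 in KD5, beside 25.4% and 23.7% in the authors' deposited table. The second JAZ10 match, Potri.001G062500, had 13 counts in wild type (2.11 CPM), 9 in KD2 (1.89 CPM) and 101 in KD5 (20.7 CPM). Only KD5 stood above wild type, at 9.79 times its level (5.48 to 19.0), and KD2 was slightly below. It was called higher over both libraries (log2 fold change 2.41, SE 0.47, edgeR adjusted p = 1.7e-05), a call that rests on KD5. Its own spread between KD2 and KD5 carried no weight in that p, which uses a spread pooled over genes. This gene also passed the filter on low counts through KD5 alone.

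The second JAZ1 match, Potri.006G139400, was the more abundant by count and moved less, standing at 25.2 CPM in KD2 and 33.8 CPM in KD5 against 15.9 CPM for wild type (log2 fold change 0.89, SE 0.25, edgeR adjusted p = 0.0051). The JAZ8 match, Potri.011G083900, had 0 wild type counts, 5 in KD2 and 19 in KD5, and passed the filter through KD5 alone. Against the floor it was at least 2.15-fold higher in KD2 and at least 7.98-fold higher in KD5 (edgeR adjusted p = 0.023), and the exact lower limits of the ratios were 1.18 and 5.88. NINJA, an adaptor that links JAZ proteins to a corepressor, fell at its match Potri.006G156100, standing at 13.9 CPM in KD2 and 19.3 CPM in KD5 against 34.3 CPM for wild type (log2 fold change -1.05, SE 0.23, edgeR adjusted p = 0.00024). The remaining gene with a TIFY name, Potri.005G152800, matched to the GATA factor TIFY1 and not to a JAZ gene, was called lower, standing at 56.7 CPM in KD2 and 59.8 CPM in KD5 against 91.0 CPM for wild type (edgeR adjusted p = 0.0048). Paralogous pairs such as these can share reads, and the authors' treatment of such reads is not stated in the labels or headers.

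**Figure D2:**
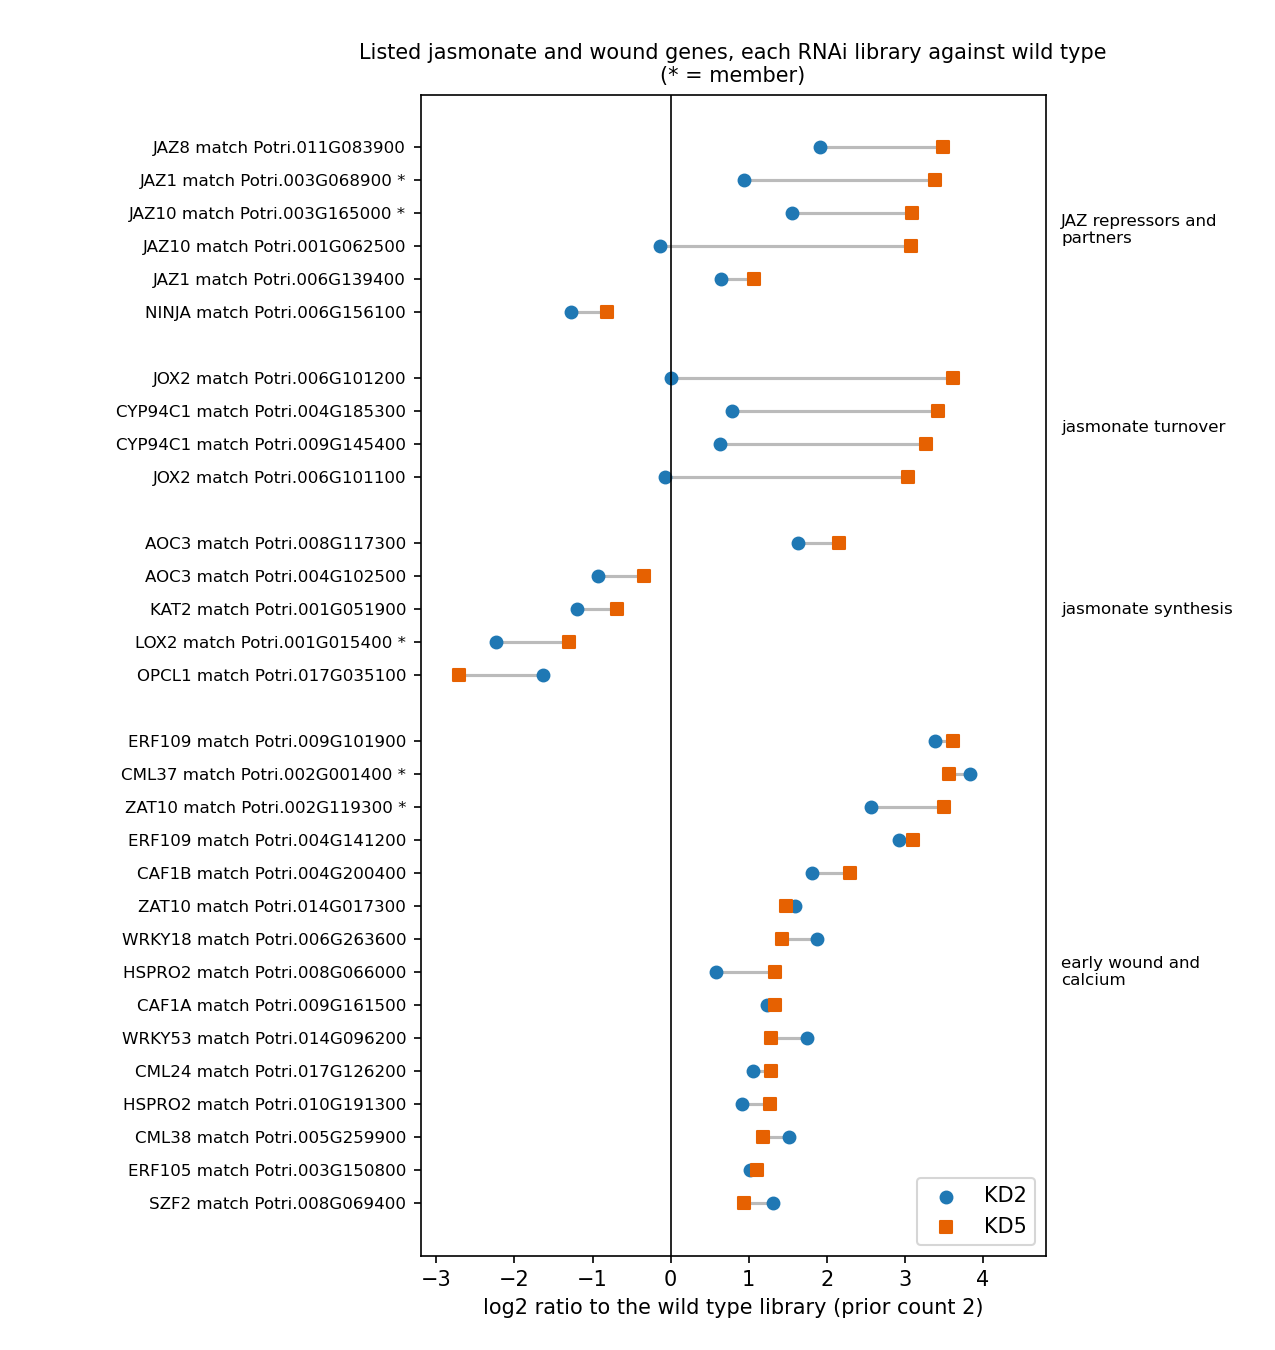
Log2 ratio to the wild type library (horizontal axis, prior count of 2) of the 5 genes (starred) and 25 further listed genes, in KD2 (circles) and KD5 (squares), grouped by role. In the turnover group, whose genes passed the filter on low counts through KD5 alone, the squares lie near 3 and above. The circles of that group lie near 0, and in the early wound group circles and squares lie together to the right of 0.

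The 4 hormone turnover matches passed the filter on low counts through KD5 alone, so a gap between the RNAi libraries was partly fixed by the filter. By log2 ratios with a prior count of 2, all 4 matched genes were at least 2-fold above wild type in KD5 and 0 of 4 in KD2, where 23.7% and 25.4% of the tested genes in the authors' deposited table reached that threshold. Their summed level was 2.73 CPM for KD2, 32.2 CPM for KD5 and 2.11 CPM for wild type. JOX enzymes hydroxylate jasmonic acid in Arabidopsis, and a JOX2 match, Potri.006G101100, had 11 counts in wild type (1.79 CPM), 8 in KD2 (1.68 CPM) and 85 in KD5 (17.4 CPM; edgeR adjusted p = 0.00015).

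Another JOX2 match with the next identifier, Potri.006G101200, had 0 counts in wild type and in KD2 and 21 in KD5, at least 8.82-fold above wild type at the floor (exact lower limit 6.56; edgeR adjusted p = 0.042). CYP94C1 oxidises jasmonoyl-isoleucine. Its match Potri.004G185300 had 2 wild type counts, 4 in KD2 and 35 in KD5 (0.325, 0.84 and 7.17 CPM; edgeR adjusted p = 0.011), with a CPM ratio of KD2 to wild type of 2.58 (0.37 to 28.6) where no prior count is added, and its match Potri.009G145400 had 0, 1 and 16 counts and was not called (edgeR adjusted p = 0.084). Of the 4 turnover genes, 3 were called higher, 0 lower and 1 not called, with a median log2 fold change over both RNAi libraries of 4.88. It was 2.28 when the 2 genes without wild type counts were placed at their bound, and the calls rest on KD5. KD5 was at least 2-fold above KD2 in 4 of 4 genes, with log2 ratios from 2.63 to 3.62, beside 3.81% of the tested genes in the authors' deposited table. The filter on low counts asks for about 10 counts, scaled for depth, in 1 library, and all 4 genes met it in KD5 alone. An excess in KD5 was thus partly fixed by the filter, so nothing is read from the 4 of 4.

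Among synthesis genes besides LOX2, 0 of 4 were at least 2-fold higher in KD5 than in KD2. That is near the share of 3.81% among the tested genes in the authors' deposited table. Of these 4, 2 were called lower, 0 higher and 2 not called, and the median log2 fold change of the 3 that were tested was -0.61. That is near the background of the authors' deposited table, where 59.5% were called lower and the median was -0.76. Allene oxide cyclase closes the ring of the jasmonate precursor, and its abundant match Potri.004G102500 (AOC3) fell, standing at 214 CPM in KD2 and 321 CPM in KD5 against 407 CPM for wild type (log2 fold change -0.61, SE 0.16, edgeR adjusted p = 0.0024). KAT2, a thiolase of peroxisomal beta-oxidation that also serves general fatty acid breakdown, fell at Potri.001G051900, standing at 63.6 CPM in KD2 and 91.2 CPM in KD5 against 147 CPM for wild type (edgeR adjusted p = 3e-06). As with LOX2, KD2 was the lower of the RNAi libraries for both. A rarer AOC3 match, Potri.008G117300, had 3 wild type counts, 11 in KD2 and 17 in KD5 and was not called (edgeR adjusted p = 0.12). The OPCL1 match Potri.017G035100 had 13, 2 and 0 counts and did not pass the filter on low counts.

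Early wound and calcium genes stood above wild type in both RNAi libraries. Of 13 genes besides CML37 and ZAT10, 12 were called higher, 0 lower and 1 not called, beside 30.8% called higher in the authors' deposited table. Some of the 13 passed the filter on low counts only through the RNAi libraries. These were the 2 genes without wild type counts, the WRKY18 match (6 counts) and the second ZAT10 match (13 counts). For them a higher level in the RNAi libraries was partly fixed by the filter. The median log2 fold change of the 13 was 1.44, beside -0.76 in the authors' deposited table. It stayed at 1.44 when the 2 genes without wild type counts were placed at their bound. On the log2 scale with the prior count, at least 2-fold above wild type were 11 of 13 in KD2 and 12 of 13 in KD5. The summed level was 193 CPM for KD2, 194 CPM for KD5 and 76.3 CPM for wild type. The median log2 ratio of KD5 to KD2 was 0.1, with a range from -0.46 to 0.76. At least 2-fold higher in KD5 than in KD2 were 0 of 13, near the 3.81% of tested genes in the authors' deposited table.

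By adjusted p the first of them was Potri.004G200400, matched to the deadenylase CAF1B, which shortens mRNA tails. It rose, standing at 14.1 CPM in KD2 and 19.9 CPM in KD5 against 3.74 CPM for wild type (log2 fold change 2.18, SE 0.37, edgeR adjusted p = 2.6e-07). SZF2, a CCCH zinc finger gene, rose at Potri.008G069400, standing at 61.1 CPM in KD2 and 47.1 CPM in KD5 against 24.4 CPM for wild type (edgeR adjusted p = 6.9e-06). WRKY53, a transcription factor of stress and senescence, rose at Potri.014G096200, standing at 15.1 CPM in KD2 and 10.9 CPM in KD5 against 4.23 CPM for wild type (edgeR adjusted p = 0.00076). KD2 was the higher RNAi library for SZF2 and WRKY53 and KD5 for CAF1B.

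The relatives of CML37 and ZAT10 followed them in direction but from a higher wild type level. CML38, another calmodulin-like gene, rose at Potri.005G259900, standing at 10.9 CPM in KD2 and 8.61 CPM in KD5 against 3.58 CPM for wild type (edgeR adjusted p = 0.014). The second ZAT10 match, Potri.014G017300, rose too, standing at 7.14 CPM in KD2 and 6.56 CPM in KD5 against 2.11 CPM for wild type (edgeR adjusted p = 0.028). Chosen after their values were seen, the matches of RRTF1, an AP2/ERF factor also called ERF109, shared the CML37 pattern of 0 wild type counts. In KD2 and KD5, Potri.009G101900 counted 17 and 21 reads and Potri.004G141200 12 and 14 (edgeR adjusted p = 0.00088 and 0.015). Both genes passed the filter on low counts only through the RNAi libraries and were chosen on these values. Nothing is therefore read from their p-values. The WRKY18 match Potri.006G263600 was not called (4.62 CPM for KD2, 3.28 CPM for KD5 and 0.975 CPM for wild type; edgeR adjusted p = 0.097).

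**Figure D3:**
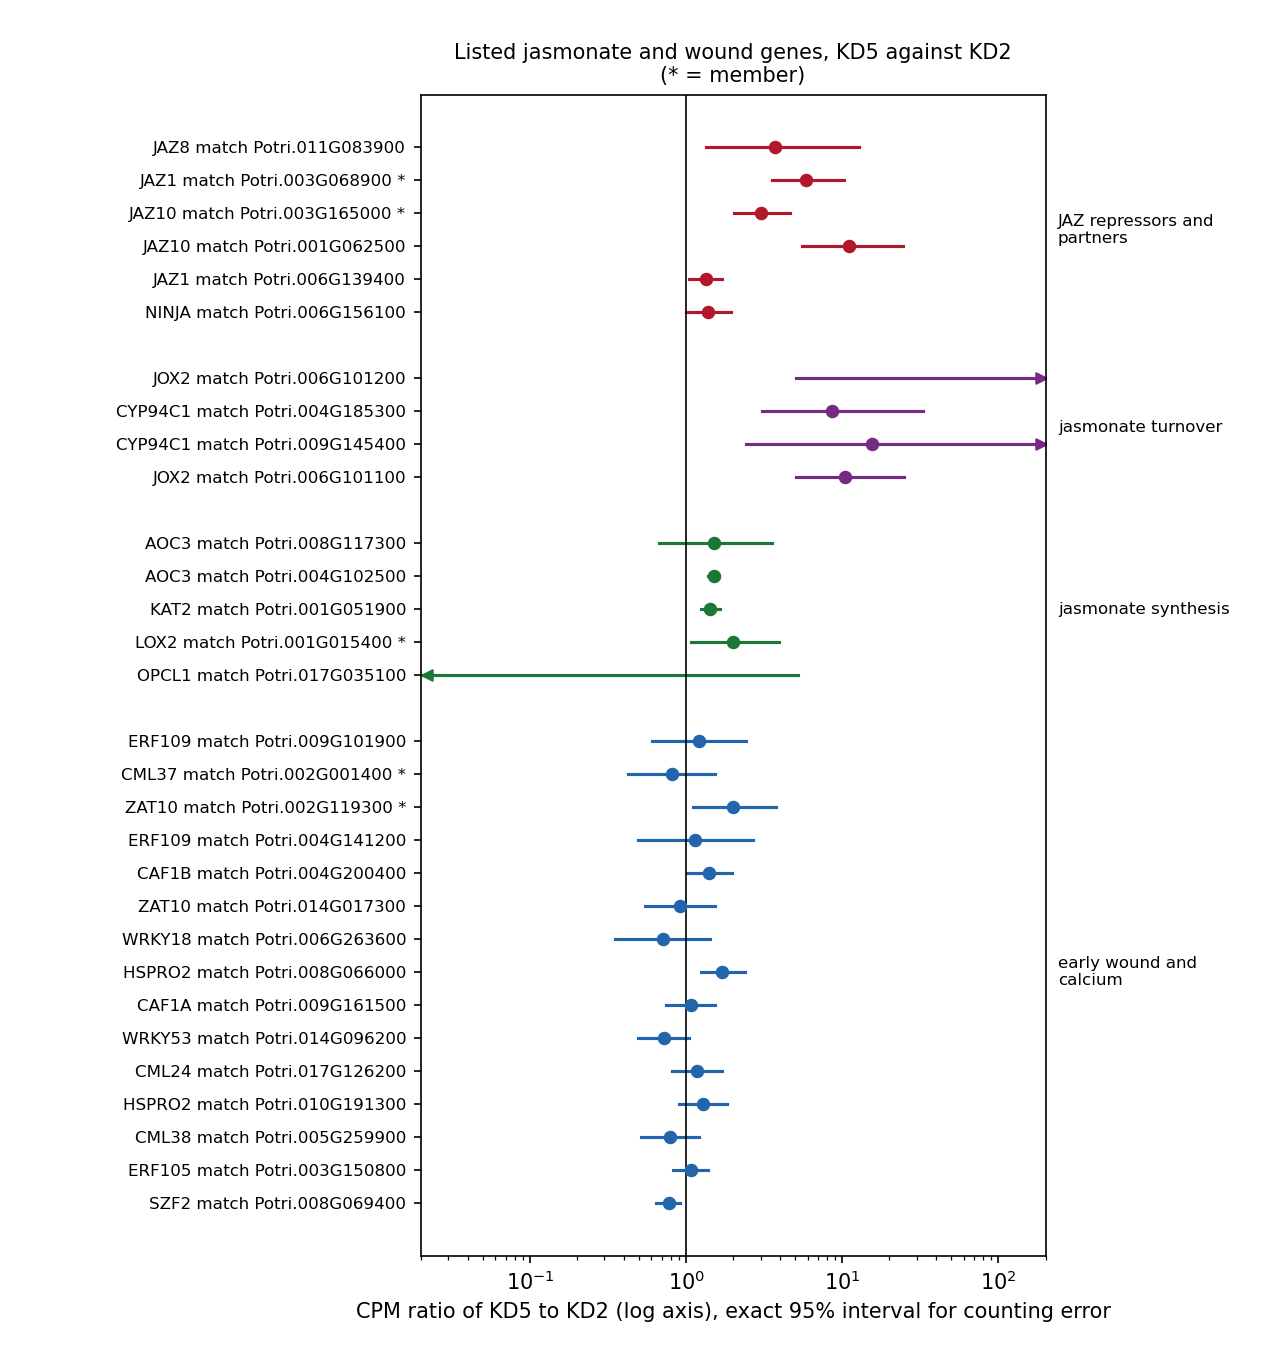
CPM ratio of KD5 to KD2 (horizontal log axis) for the 5 genes (starred) and 25 further listed genes; points are ratios, lines exact 95% intervals for counting error, and arrows mark intervals that run past the axis or are unbounded. All 4 turnover genes, which passed the filter on low counts through KD5 alone, lie above 1 with their intervals. Of 13 further early wound genes, 10 have intervals that include 1.

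The counting intervals of the KD5 to KD2 ratio hold no error between plants. They lay above 1 for 4 of 4 turnover genes, 3 of 4 further JAZ genes and partners and 2 of 4 further synthesis genes. All turnover genes, the JAZ8 match and the second JAZ10 match passed the filter on low counts through KD5 alone. Their excess in KD5 was thus partly fixed by the filter. Among further early wound genes the intervals lay above 1 for 2 of 13, below 1 for 1 and included 1 for 10. For the second JAZ10 match, Potri.001G062500, the ratio was 11 (5.55 to 24.6), for the JAZ1 match Potri.003G068900 it was 5.86 (3.54 to 10.3), and for the JAZ10 match Potri.003G165000 it was 3.02 (2.02 to 4.61). Among tissue markers they lay above 1 for 2 of 4 shoot meristem genes and 2 of 9 green leaf genes, and below 1 for 5 of 6 epidermis genes. Whether the groups differ in this respect was not tested. The share of all tested genes with an interval off 1 was not computed, so these counts have no background. They also depend on the number of reads. The AOC3 match Potri.004G102500, with 1017 counts in KD2 and 1565 in KD5, lay above 1 at a ratio of only 1.5 (1.39 to 1.63).

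**Figure D4:**
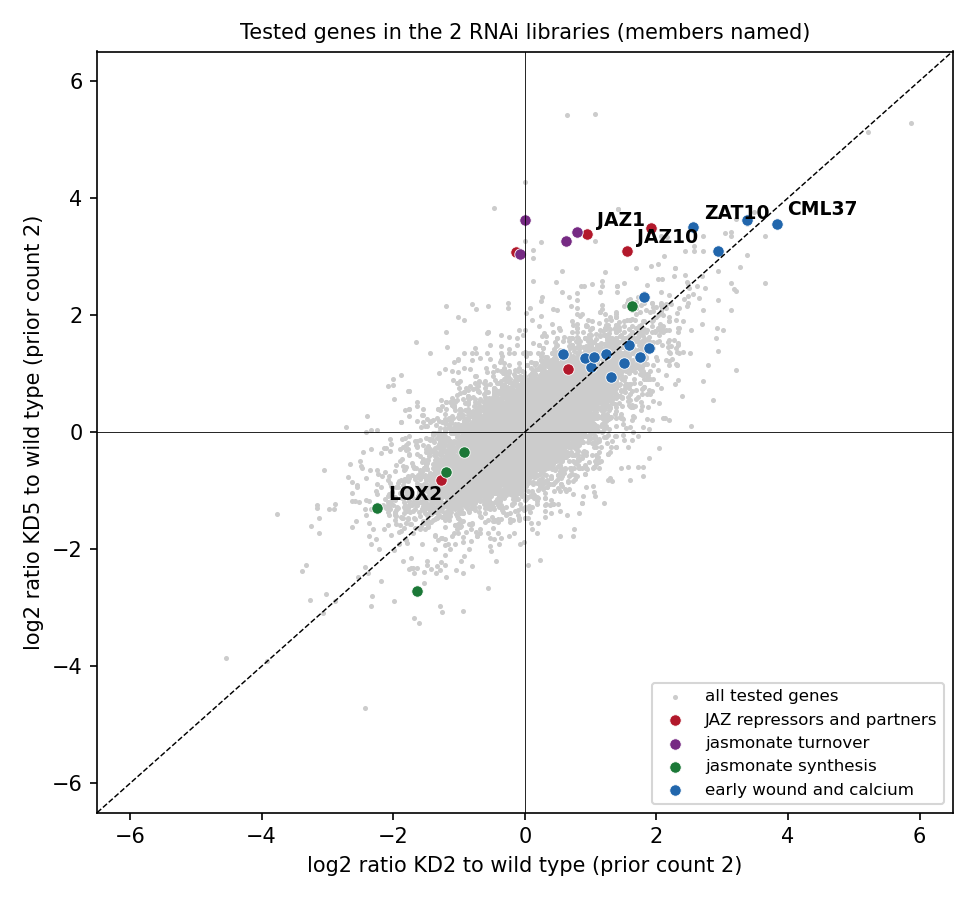
Log2 ratio to wild type in KD2 (horizontal) and KD5 (vertical), each with a prior count of 2, for 23089 tested genes (grey) and the listed genes by role (colours; one, the OPCL1 match, was not tested); the dashed line marks equal ratios. The early wound genes lie along the line, and the turnover and most JAZ matches lie above it, at KD5 ratios of about 3 and more. The turnover matches passed the filter on low counts through KD5 alone.

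Likeness was measured as the distance between pairs of log2 ratios to wild type (KD2 and KD5), among the 1568 tested and described genes whose mean reached 5 CPM. Over 3 libraries this is a coarse measure. The gene nearest to the JAZ1 match was the JAZ10 match (distance 0.674), followed by the SAG21 match Potri.002G203500 (0.89), a late embryogenesis abundant gene, and the JOX2 match Potri.006G101100 (1.07). Nearest to the JAZ10 match were a ribosomal protein L11 family gene, Potri.018G145200 (0.659), the JAZ1 match and the CAF1B match Potri.004G200400 (0.836). The L11 family gene was also the nearest to the ZAT10 match (0.428), ahead of the EXO match Potri.005G163600 (0.495) and an ankyrin repeat gene, Potri.008G023200 (0.937). The CML37 match was nearest to EXO (0.807), a ribosomal protein L22 match, Potri.013G136600 (1.29), and Potri.018G145200 (1.68), all rather distant. The LOX2 match lay within 0.0635 of a histone H2B match (Potri.004G091400) and of the PDLP7 match (Potri.004G086000), which had the same counts of 61, 9 and 19, and within 0.178 of the TCTP match Potri.008G221200.

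Markers of tissues within a bud could be found only through the authors' deposited table, which matched 14 of 30 listed loci, among them 1 of 9 for secondary xylem and 1 of 4 for phloem. Of the 24 genes matched, 23 were called lower, 0 higher and 1 not called, beside 59.5% called lower in that table and 8.05% of all tested genes, and none was at 0 in any library. The summed level of 9 green leaf genes was 2860 CPM for KD2, 2910 CPM for KD5 and 6450 CPM for wild type. In the order wild type, KD2, KD5, that of 6 epidermis genes was 2830, 1630 and 1400 CPM, and that of 4 shoot meristem genes 325, 157 and 199 CPM. For 4 phloem genes it was 70.6, 30.7 and 37.1 CPM, and 1 secondary xylem gene stood at 15.1, 5.25 and 6.97 CPM. These move with the lower level of the LOX2, AOC3, KAT2 and NINJA matches, and their part in those results was not tested. The median log2 ratio of KD5 to KD2 was at most 0.38 in size in each marker list, with single genes from -1.65 (epidermis) to 0.85 (phloem). The part of tissue make-up in the differences between KD5 and KD2 was not tested.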

How the data were processed

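RNA from poplar buds was sequenced after directional library preparation, per the labels' protocols. The deposited table holds raw whole-number counts per gene, 1 column per library. FastQC, TopHat and edgeR are listed in the submitters' processing notes. Tool versions, counting program, annotation and build were not given in the sources used here. In addition the authors' deposited table gives log2 fold changes and average log2 CPM, with p-values and adjusted p-values, per the file headers, for 2151 genes, and an Arabidopsis locus for 2010 of them.

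Counts were tested with edgeR 4.0.16 in R 4.3.3, with filterByExpr (minimum count 10), TMM scaling (factors 0.9035, 1.06 and 1.044 for wild type, KD2 and KD5) and a two-sided quasi-likelihood F-test with Benjamini-Hochberg adjustment over 23089 genes, called below 0.05. It leaves 1 residual degree of freedom, so wild type is assumed to vary like KD2 and KD5. The prior degrees of freedom were estimated as infinite, so each p-value uses the spread between KD2 and KD5 pooled over genes and gives a gene's own spread no weight. Ratios of libraries carry exact 95% intervals for counting error. Log2 ratios used a prior count of 2. Where a library had 0 counts, the bound used 3 counts in that library.

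The genes, lists and tests were chosen with earlier results of these data known. Named genes are the members, up to 3 called genes per list and direction by adjusted p, annotated relatives of the members, and the 3 nearest genes in likeness. Promoter motifs were not examined. Alternatives covered scaling, filters, DESeq2 1.42.0, limma 3.58.1 and leaving out a library.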

Additional observations from a re-analysis of the deposited data

Results flagged for a closer look

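The search covered the members, the other listed jasmonate and wound genes, annotated relatives and the nearest genes in likeness. For 2 of the genes searched, the library labelled KD2 lay below wild type and the library labelled KD5 above it. This difference between lines was not tested. Genes outside the search had the same signs, such as the TIP1;3 and PIP2;2 matches below. The share of all tested genes with these signs was not computed. The second JAZ10 match, Potri.001G062500, stood at a log2 ratio of KD5 to KD2 of 3.22, with 13 wild type counts, 9 for KD2 and 101 for KD5. The JOX2 match Potri.006G101100 stood at 3.11, with 11, 8 and 85 counts. In both, KD2 differed from wild type by less than counting error, with ratios of 0.894 (exact 95% interval 0.337 to 2.26) and 0.939 (0.328 to 2.56).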

How the results depend on the processing

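The mean log2 ratio of the RNAi libraries to wild type kept its sign for all 5 genes under each alternative run. Of 25 values under another scaling or prior, 23 moved by less than the SD between KD2 and KD5. This yardstick is widest where the 2 libraries differ most, so for the JAZ matches it could hardly be exceeded. The JAZ1 match itself ran from 2.06 (loess normalization) to 2.35 (scaled by size only), beside 2.16. With a prior count of 0.5 the CML37 match moved from 3.7 to 5.61 and the ZAT10 match from 3.03 to 3.7. With 1 RNAi library left out the range was 0.94 to 3.38 for JAZ1, 1.55 to 3.09 for JAZ10, -2.24 to -1.3 for LOX2, 3.56 to 3.83 for CML37 and 2.56 to 3.5 for ZAT10.

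The counts of calls depend more on the processing. Of all tested genes 1155 were called higher and 1859 lower (38.3% higher), but 3004 and 976 (75.5% higher) with libraries scaled by size only, which moved the median log2 fold change from 0.02 to 0.24. They were 474 and 782 with loess normalization on abundance, 42 and 513 with DESeq2 (7.57% higher), and 469 and 455 (50.8% higher) at 2-fold or more. Without a filter edgeR called 0 and 0, with 5051 at an unadjusted p under 0.05. Of the 25 further listed genes, 18 were called higher and 3 lower, against 6 higher with loess normalization (75.0% of its 8 calls, beside 85.7%), 0 and 0 without a filter, and 1 lower at 2-fold or more. Limma-voom called 12 higher and 3 lower. DESeq2 called 1 higher and 1 lower, and gave no adjusted p for 21 of the 25 or for any of the 5. The cause of these shifts was not tested. No fit was possible with KD2 or KD5 left out, since 1 library would face 1. No paired analysis was possible because wild type has 1 library. Depth limits the genes at 0 to 3 counts in wild type.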

Other observations

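Other described genes shared the pattern of the JOX2 matches, by a rule set after the data were seen, with a KD2 level at most 1.5 times wild type and KD5 at least 4-fold above both (log2 ratio of at least 2, prior count of 2). It took 20 tested genes, of which 9 are in the authors' deposited table. Besides the JAZ10 and JOX2 matches they include both matches of ABR1, an AP2/ERF repressor of abscisic acid responses. Potri.005G087200 had 0 counts in wild type and KD2 and 34 in KD5, and Potri.005G195000 had 4, 4 and 46. Water channels were among them, with the tonoplast TIP1;3 match Potri.008G050700 at 1.3, 0.84 and 23.6 CPM in wild type, KD2 and KD5 and the plasma membrane PIP2;2 match Potri.016G089500 at 7.97, 4.62 and 35.5 CPM. The match of CYP82G1, which makes a volatile homoterpene in damaged Arabidopsis leaves, is Potri.004G106600 and stood at 2.28, 2.31 and 10.5 CPM. A protein kinase gene, Potri.015G026300, had 1, 1 and 21 counts. These are values of 1 KD5 library, with no test.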
